A study of Mus musculus with 12 samples.

Results

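Lung alveolar macrophages taken 1 day after removal of 70% of the liver were compared with those of mice whose liver was intact. All arrays whose label gave day 1 (3 arrays) and all whose label gave an intact liver (3 arrays) entered, 6 of the 12 arrays of the study. The mice were male C57 Black animals, with no age given in the sources used here. Lung cells were collected on magnetic beads through Siglec-F, a surface lectin of alveolar macrophages that is also found on eosinophils, and their total RNA was hybridised to Clariom S mouse arrays, 1 array per biological replicate. The same cells were taken at day 3 and day 7 after the resection (3 arrays each), and these 6 arrays were used here to set day 1 against the later times. The labels describe no sham operation, so the effects of surgery and of the loss of liver cannot be told apart.

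Alveolar macrophages live in the airspaces, where they take up and break down surfactant lipid and inhaled particles. They depend on the nuclear receptor Pparg and are known for a restrained response to inflammatory signals. After a large resection the liver remnant regrows under cytokines and growth factors, while stress hormones and acute phase mediators circulate through other organs. Interferon gamma, made mainly by T and NK cells, makes macrophages produce antigen-presenting MHC class II proteins and large GTPases that attack the compartments of intracellular parasites.

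The sorted cells carried the transcripts of alveolar macrophages at both times. Pparg had log2 signals of 8.90, 9.27 and 8.85 in the day 1 arrays, against 8.93, 8.84 and 8.71 in the intact arrays. The mannose receptor Mrc1 had 10.24, 10.46 and 10.07 at day 1, against 10.16, 10.10 and 10.05 in intact mice. Both genes overlapped between the groups. Siglecf itself had 8.61, 7.89 and 8.50 at day 1 and 8.69, 8.94 and 8.75 in intact mice, a difference of -0.46 ± 0.20 (log2, day 1 minus intact, ± SE, n = 3 arrays per group here and throughout) that shrank to -0.24 without the second day 1 array. Over the 26 measured genes of a list of alveolar macrophage identity, 8 were higher and 18 lower at day 1. The median difference was -0.21, and -0.03 without that array. Of the lower members, Car4 differed by -1.06 ± 0.44 and Itgax by -0.93 ± 0.39, with overlapping groups. Without the second day 1 array they differed by -0.47 and -0.52. Defining markers of hepatocytes such as albumin (Alb) lay at 2.52, 2.54 and 2.62 at day 1 and 2.23, 2.47 and 2.13 in intact mice, near the median of the negative control probe sets, which was 2.39 to 2.76 over these arrays. The day 1 values of Alb lay above the intact ones, by 0.28 ± 0.18, at that level of background.

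Day 1 replicate 2 stood apart from every other array, and many results below are given with and without it. Differences given only with it may rest on it in part. Its upper quartile was 4.61 on the log2 scale, against 5.16 and 5.18 on the other day 1 arrays and 5.20 to 5.24 on the intact arrays. Its area under the curve for telling positive from negative control probe sets was 0.809, against 0.871 and 0.872 on the other day 1 arrays and 0.878 to 0.888 on the intact ones. Of all probe sets, 17.9% exceeded the 95th percentile of its negative controls, against 26.0% and 24.98% in the other day 1 arrays and 24.6% to 26.6% in intact ones. Probe sets with a mean signal of 6 to 8 lay a median of 0.56 below the intact mean on this array (log2, -0.56), while the other 5 arrays lay between -0.01 and 0.02. The dimmest probe sets, under 3, lay 0.19 above it. Of 45 gene lists described, 41 had a median below 0 over the 6 arrays, and 25 without this array, so that the medians of 16 lists took the other sign. Day 3 replicate 1 and day 7 replicate 2 also separated their controls weakly, at 0.832 and 0.837, and an alternative fit left all 3 arrays out. Control RNAs added at hybridisation were brighter on every day 1 array than on every intact array, by 1.56 for bioB and by 1.01 without replicate 2, and their part in the results was not tested.

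**Figure D1:**
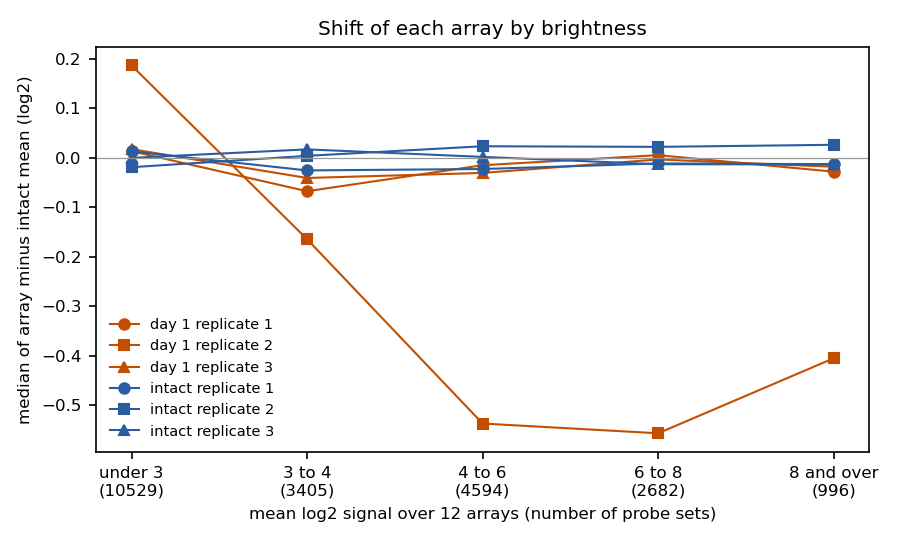
Median log2 shift of each array from the mean of the 3 intact arrays (vertical axis) for probe sets grouped by their mean signal over 12 arrays (horizontal axis, number of probe sets in parentheses), for day 1 (orange) and intact (blue) arrays. Day 1 replicate 2 (orange squares) lies at -0.56 to -0.41 for probe sets of 4 and over and at 0.19 for those under 3, while the other arrays stay near 0.

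In limma, with 1 model over all 12 arrays, 0 of 22206 probe sets (0%) had a Benjamini-Hochberg adjusted p under 0.05, and the smallest adjusted p was 0.1005. An unadjusted p under 0.05 was reached by 674 probe sets that were higher (3.04%) and 1311 that were lower (5.9%) at day 1. That split was 861 of 1882 higher after quantile normalization and 964 of 2026 higher after centring arrays on their medians. The 3 day 1 values lay above all 3 intact values for 1647 probe sets (7.42%) and below all of them for 1985 (8.94%). Without the 3 weakly separating arrays, 20 probe sets were called higher (0.0901%) and 51 lower (0.23%) at day 1. Of these 71, 63 also had groups without overlap in all 6 arrays. All of these 6 arrays except day 1 replicate 2 were in the fit that chose the 71 probe sets. Absence of overlap in them is thus largely set by that choice and is no separate support. Genes described as called passed the test in that alternative fit, which left out no intact array. Counted by gene, with 1 probe set each, 47.6% of 19505 genes were higher and 52.4% lower at day 1, with a median of -0.02. The day 1 arrays lay wholly above the intact arrays for 7.21% of genes and wholly below them for 9.28%. These shares are the background for each list below, and the lists were not tested as lists.

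The guanylate-binding proteins and immunity-related GTPases, the large GTPases that interferon gamma induces, were lower at day 1 in all 11 measured members. Their median difference was -1.47, against -0.02 over all genes, and -1.09 without day 1 replicate 2. Groups did not overlap for 10 of the 11, where the share over all genes was 9.28%. Tgtp2, one of the immunity-related GTPases, had log2 signals of 5.03, 3.71 and 6.11 at day 1, against 7.30, 7.72 and 8.23 in intact mice, a difference of -2.80 ± 0.71. Gbp4, a guanylate-binding protein, had 6.12, 3.42 and 6.18 at day 1, against 7.42, 8.45 and 8.31 in intact mice. Every day 1 value of both genes lay below every intact value, and the lowest was that of replicate 2. Without replicate 2 the differences were -2.18 for Tgtp2 and -1.91 for Gbp4, against -2.80 and -2.82 with it.

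Irgm1, a regulatory GTPase that guides the others to their target membranes, had 6.01, 3.11 and 6.35 at day 1 and a narrow 7.26, 7.33 and 7.34 in intact mice. It differed by -2.15 ± 0.65, and by -1.13 without replicate 2. Igtp, also known as Irgm3, had 5.65, 4.24 and 5.25 at day 1, against 6.05, 6.51 and 7.06 in intact mice. Gbp3 went against the pattern of the compressed array: its 5.62, 6.10 and 5.71 at day 1 put replicate 2 nearest to the 6.77, 6.95 and 7.17 of intact mice. Gbp3 differed by -1.15 ± 0.27 and was called lower without the weakly separating arrays, at -1.30 with an adjusted p of 0.00991. It was the only one of the 11 called in that fit. Gbp2 was the member whose groups overlapped, with 7.06, 5.85 and 6.79 at day 1 and 7.48, 6.94 and 7.66 in intact mice. Several of these genes have close paralogs, and how far their probes tell them apart was not tested.

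The regulatory sequence of these genes is shown because the family was lower together. RefSeq promoter windows of GRCm38.p6, which run from 250 bases before to 50 after a transcription start, were available for 7 of the 11 GTPase genes. The core of the interferon-stimulated response element, 2 copies of GAAA with 2 bases of any kind between them, was searched on both strands. The core occurred in the windows of 7 of those 7 genes (Tgtp2, Igtp, Irgm1, Irgm2, Gbp2, Gbp3 and Gbp7) and in 618 of 15691 measured genes with a window (3.94%). Of all 32851 windows 3.44% held it. Among 21 interferon-induced genes with a window, 13 held the core (61.9%). A match describes the letters and does not show a used site. Tgtp2 spans chr11:49064163-49064462 on the minus strand, Igtp chr11:58199306-58199605 on the plus strand, Irgm1 chr11:48871371-48871670 on the minus strand, Irgm2 chr11:58214727-58215026 on the plus strand, Gbp3 chr3:142559794-142560093 on the plus strand and Ifit3 chr19:34583279-34583578 on the plus strand. Each is written 5′ to 3′ along its gene, with the core in capitals. Where the match lies on the other strand it reads as copies of TTTC, and in Irgm1 and Gbp3 a pair of matches overlap.
Tgtp2: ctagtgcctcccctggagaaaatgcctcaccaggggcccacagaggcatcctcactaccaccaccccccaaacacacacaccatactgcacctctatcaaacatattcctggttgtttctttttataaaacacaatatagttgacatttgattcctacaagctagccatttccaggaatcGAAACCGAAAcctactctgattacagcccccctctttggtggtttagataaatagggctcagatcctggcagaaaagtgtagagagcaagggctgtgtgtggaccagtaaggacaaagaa
Igtp: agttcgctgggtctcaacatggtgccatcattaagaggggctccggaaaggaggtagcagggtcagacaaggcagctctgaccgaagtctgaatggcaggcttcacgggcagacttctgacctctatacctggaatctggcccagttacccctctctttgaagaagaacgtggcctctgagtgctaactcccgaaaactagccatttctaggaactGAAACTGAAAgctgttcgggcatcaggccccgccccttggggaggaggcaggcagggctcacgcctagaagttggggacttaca
Irgm1: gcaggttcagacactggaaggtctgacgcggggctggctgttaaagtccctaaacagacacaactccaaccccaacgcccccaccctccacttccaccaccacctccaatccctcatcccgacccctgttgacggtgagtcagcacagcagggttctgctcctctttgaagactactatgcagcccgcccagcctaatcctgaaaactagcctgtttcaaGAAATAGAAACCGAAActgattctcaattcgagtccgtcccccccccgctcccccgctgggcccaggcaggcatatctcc
Irgm2: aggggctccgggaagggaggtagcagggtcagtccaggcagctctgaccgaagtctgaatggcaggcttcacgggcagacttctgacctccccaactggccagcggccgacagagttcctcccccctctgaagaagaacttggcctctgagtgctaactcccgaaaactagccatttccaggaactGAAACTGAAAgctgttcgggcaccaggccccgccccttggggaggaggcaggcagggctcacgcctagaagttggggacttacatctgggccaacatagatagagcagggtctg
Gbp3: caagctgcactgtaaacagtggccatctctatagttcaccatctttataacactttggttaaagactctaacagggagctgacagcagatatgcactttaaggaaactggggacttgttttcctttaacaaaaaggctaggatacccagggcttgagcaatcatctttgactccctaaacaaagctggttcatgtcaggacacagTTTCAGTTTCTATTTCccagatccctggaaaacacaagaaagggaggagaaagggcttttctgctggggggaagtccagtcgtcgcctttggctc
Ifit3: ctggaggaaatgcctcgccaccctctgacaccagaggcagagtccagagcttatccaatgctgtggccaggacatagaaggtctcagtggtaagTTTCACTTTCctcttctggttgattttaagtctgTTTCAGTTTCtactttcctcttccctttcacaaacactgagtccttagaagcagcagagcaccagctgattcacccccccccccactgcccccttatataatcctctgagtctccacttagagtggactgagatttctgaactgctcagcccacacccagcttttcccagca

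Counted from its first base in the window, the core began 70 bases before the transcription start in Tgtp2, 64 in Irgm2, 45 in Gbp3, 34 in Igtp and 30 in Irgm1, the overlapping pair counted from its outer end. In Ifit3 the matches began 156 and 122 bases before it.

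The wider list of interferon-induced genes had 4 of 30 members higher and 26 lower at day 1, with a median of -0.48, and of -0.38 without day 1 replicate 2. The day 1 values lay wholly below the intact values for 16 of the 30, where all genes gave 9.28%. Ifit3, an antiviral protein with tetratricopeptide repeats, had 4.58, 5.06 and 3.88 at day 1, against 5.70, 6.35 and 6.55 in intact mice, a difference of -1.70 ± 0.33. It was called lower without the weakly separating arrays, at -1.97 with an adjusted p of 0.0129. Its close copy Ifit3b differed by -1.49 ± 0.29, and Mx2, an antiviral dynamin-like GTPase, by -1.43 ± 0.34. Stat2, which carries the signal of type I interferon to the nucleus, had 4.66, 3.58 and 5.19 at day 1, against 5.78, 5.70 and 6.004 in intact mice.

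Not all interferon-induced genes followed. The oligoadenylate synthetases Oas1a, Oas2 and Oas3, which sense viral RNA, differed by -0.28 ± 0.33, 0.11 ± 0.22 and -0.00 ± 0.21, with overlapping groups. Trim30a, a ubiquitin ligase that dampens inflammatory signalling, had 6.28, 4.45 and 6.33 at day 1 and 5.85, 5.50 and 5.36 in intact mice. Its day 1 arrays thus lay on both sides of the intact ones. Isg15, a ubiquitin-like modifier, differed by -0.54 ± 0.19, at signals of 2.69 to 3.21 at day 1 and 3.44 to 3.55 in intact mice that are close to the negative controls.

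Genes of MHC class II presentation, which interferon gamma also induces, were lower in 15 of 16 measured members, with a median of -0.69, and of -0.61 without day 1 replicate 2. For 8 of the 16 the day 1 values lay wholly below the intact values. H2-Ab1, a class II chain, had 7.87, 5.20 and 8.34 at day 1, against 10.04, 9.09 and 9.29 in intact mice, and differed by -2.34 ± 0.63. H2-Eb1, another chain, had 7.35, 4.77 and 7.49 at day 1, against 9.16, 8.18 and 8.54 in intact mice. Both differences shrank without replicate 2, to -1.37 and -1.21. Ciita, the coactivator that switches class II genes on, had 2.39, 2.66 and 2.87 at day 1 and 3.62, 3.39 and 4.04 in intact mice, a difference of -1.05 ± 0.22 close to background. The DNA-binding partners Rfx5, Rfxank and Rfxap, through which Ciita acts, differed by only 0.07, -0.15 and -0.22. For class I presentation the median was -0.45 over 15 members, and -0.16 without replicate 2.

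**Figure D2:**
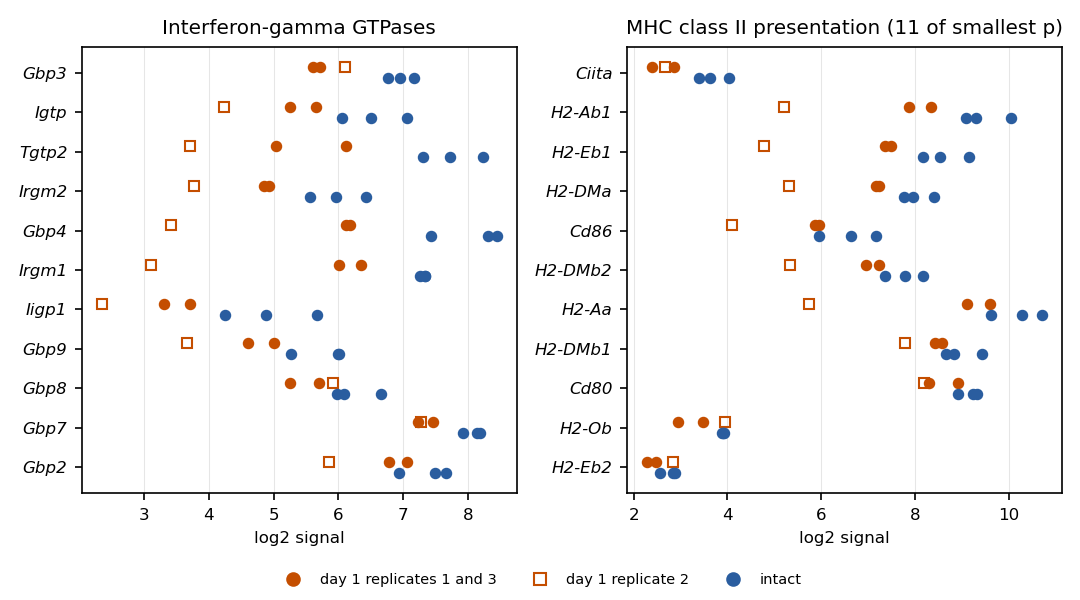
Log2 signal (horizontal axis) of the 11 measured interferon-gamma GTPases (left) and of the 11 genes of MHC class II presentation with the smallest unadjusted p (right) in each day 1 array (orange, replicate 2 as an open square) and each intact array (blue). For the GTPases other than Gbp2 all day 1 points lie left of all intact points, and for most class II genes replicate 2 lies furthest left.

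Markers of other cells were lower on the same arrays. Interferon gamma itself comes from T and NK cells, whose markers were lower in 15 of 20 members, with a median of -0.33 and a mean signal of 2.97 to 3.20 at day 1, against 3.51 to 3.75 in intact arrays. Gzma, a granzyme of killer lymphocytes, had 3.66, 2.61 and 3.99 at day 1, against 5.04, 5.88 and 6.52 in intact mice. Ccl5, a chemokine of the same cells, was called lower without the weakly separating arrays, at -0.99 with an adjusted p of 0.0345. Dendritic cell markers, whose cells are rich in class II, were lower in 15 of 16 members, with a mean signal of 3.02 to 3.49 at day 1, against 3.71 to 4.02 in intact mice. Defining markers of both cell types were dim on all arrays: the T cell receptor chain Cd3e had 2.97, 3.41 and 2.59 at day 1 and 3.46, 3.24 and 4.16 in intact mice, and the dendritic cell markers Clec9a and Xcr1 had 2.19 to 2.59 at day 1 and 2.46 to 3.70 in intact mice. In RNA of sorted cells, fewer cells of a type and less RNA per cell cannot be told apart, and what part the other cells have in the lower interferon and class II signals was not tested.

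Lung tissue transcripts were lower at day 1 across the lists of 5 kinds of cell. Fibroblast and smooth muscle markers were lower in 18 of 19 members, with a median of -1.23, and of -0.84 without day 1 replicate 2. Endothelial markers were lower in 18 of 19, with medians of -1.45 and -0.68. Type 2 alveolar markers were lower in 14 of 15, with medians of -1.26 and -0.83, type 1 markers in 13 of 13, with medians of -0.72 and -0.63, and airway epithelial markers in 14 of 17, with medians of -0.85 and -0.62. The mean signal of each of these lists was below the intact range in every day 1 array. The type 2 list, for instance, averaged 5.20, 3.88 and 5.55 at day 1, against 5.93, 6.26 and 6.18 in intact mice. Set against days 3 and 7, the medians were -0.09 (fibroblast), -0.16 (endothelial), -0.27 (type 2), -0.52 (type 1) and 0.24 (airway). Without replicate 2 they were 0.12, 0.22, 0.16, -0.31 and 0.15 in the same order. Without that array only the type 1 list thus had a lower median at day 1 than later.

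Surfactant protein C (Sftpc), which type 2 cells make, had 9.54, 6.28 and 10.31 at day 1, against 10.81, 11.33 and 11.20 in intact mice. It differed by -2.40 ± 0.75, and by -1.19 without replicate 2. Claudin 18 (Cldn18), a tight junction protein of the alveolar wall, had 4.79, 3.38 and 5.33 at day 1, against 6.84, 7.30 and 7.64 in intact mice. It was called lower without the weakly separating arrays, at -2.20 with an adjusted p of 0.0121. In the same fit Npnt (nephronectin, a matrix protein), Postn (periostin) and Adamts1 (a matrix protease) were called lower, with differences of -2.17, -2.01 and -1.95. Among the matrix genes Col3a1, a chain of collagen III, had 3.45, 3.01 and 2.99 at day 1 and 4.34, 5.23 and 5.19 in intact mice, close to or below the 95th percentile of the negative controls in both groups, which averaged 5.18. Tppp3, a tubulin-binding protein of ciliated cells, had 5.43, 4.44 and 5.35 at day 1, against 7.03, 7.47 and 6.71 in intact mice, a difference of -2.00 ± 0.33. It was called in the fit without the weak arrays, at -1.68. The 3 members of the airway list that were higher were Epcam, Ccdc153 and Dynlrb2. They differed by 1.11 ± 0.39, 0.13 ± 0.22 and 0.05 ± 0.28, all with overlapping groups, and Dynlrb2 by -0.35 without replicate 2.

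Genes that cells switch on within minutes of a stimulus, the immediate early genes, were lower in 23 of 26 members. Their median was -0.60, and -0.46 without day 1 replicate 2, and for 17 of the 26 the day 1 values lay wholly below the intact values. The orphan nuclear receptor Nr4a2 had 5.51, 4.49 and 6.003 at day 1, against 8.29, 7.6002 and 7.28 in intact mice, a difference of -2.39 ± 0.44. Its relatives Nr4a1 and Nr4a3 differed by -0.67 ± 0.17 and -0.93 ± 0.23. Ier3, which protects cells from death, had 8.12, 7.35 and 8.30 at day 1, against 9.06, 9.37 and 9.70 in intact mice.

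Of the AP-1 subunits, Fos had 9.20, 8.79 and 9.17 at day 1, against 9.50, 9.69 and 9.81 in intact mice, and Jun differed by -0.65 ± 0.22. Replicate 2 was the highest day 1 array for Fosb and Egr1, whose differences were larger without it, at -0.73 and -0.81. Fosl1, another AP-1 subunit, went the other way, with 6.98, 6.85 and 6.24 at day 1 and 5.98, 6.17 and 6.22 in intact mice. Egr2 had 9.92, 10.33 and 10.16 at day 1, within reach of the 10.08, 10.05 and 10.21 of intact mice.

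Acute phase genes were higher in 12 and lower in 4 of 16 members, with a median of 0.24, and of 0.15 without day 1 replicate 2. For 3 of them (Saa3, Lcn2 and Steap4) the day 1 values lay wholly above the intact values, and for 1 (Hpx) wholly below them. Crp, Orm1, Orm2, Saa4 and Apcs among the higher members, and Hpx among the lower, averaged 2.18 to 2.69 in both groups. That is near the negative control medians of 2.39 to 2.76, so the counts of higher and lower members rest in part on background. Saa3, the serum amyloid made outside the liver, had 9.54, 7.23 and 9.89 at day 1, against 5.44, 6.18 and 6.11 in intact mice, a difference of 2.98 ± 0.66, and of 3.81 without day 1 replicate 2. Its day 1 values lay above every intact value, and in the fit without the weakly separating arrays its adjusted p was 0.00261. Lcn2, lipocalin 2, which binds bacterial iron carriers, had 11.35, 10.32 and 11.58 at day 1, against 9.85, 9.10 and 10.07 in intact mice. The liver-type serum amyloid Saa1 had 2.86, 4.69 and 2.58 at day 1 and 2.92, 2.48 and 2.45 in intact mice, so that only replicate 2 was high.

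Neutrophil markers were higher in 20 of 27 members, with a median of 0.77, and of 1.00 without day 1 replicate 2, and for 10 of the 27 the day 1 values lay wholly above the intact values, where all genes gave 7.21%. Mrgpra2b, a receptor of neutrophil granule release, had 8.82, 7.81 and 9.25 at day 1, against 6.95, 6.28 and 5.82 in intact mice, a difference of 2.28 ± 0.42. Its adjusted p was 0.00916 without the weak arrays. The stefins Stfa2 and Stfa2l1, inhibitors of cysteine proteases, differed by 1.71 ± 0.45 and 1.70 ± 0.44, and Mmp9, gelatinase B, by 1.44 ± 0.34. Cxcr2, the receptor that draws neutrophils to chemokines, had 7.01, 7.16 and 7.14 at day 1, against 6.29, 5.71 and 6.21 in intact mice. All of these groups were apart on every array.

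Not all members of the list were higher. Elastase (Elane) had 2.91, 2.95 and 3.77 at day 1 and 3.57, 3.59 and 3.89 in intact mice, myeloperoxidase (Mpo) differed by 0.20 ± 0.30, and lactoferrin (Ltf) by -0.23 ± 0.48. Without replicate 2 these differences were -0.05 for Mpo and 0.49 for Ltf. Mmp8, neutrophil collagenase, had 8.01, 5.71 and 8.42 at day 1, against 5.76, 5.63 and 5.95 in intact mice, so that replicate 2 alone overlapped. The mean signal of the whole neutrophil list was 7.39, 6.44 and 7.45 at day 1 and 6.53, 6.26 and 6.36 in intact mice, so that replicate 2 lay within the intact range. Lcn2 is a member of this list as well as of the acute phase list, so it is counted in both. Neutrophil markers were thus higher beside Saa3, and what part neutrophils have in Saa3 and Lcn2 was not tested.

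Other named genes that were higher at day 1 were not members of the neutrophil list, but what part neutrophils have in them was not tested. Gca, grancalcin, a calcium-binding protein, had 7.09, 6.43 and 6.89 at day 1, against 5.10, 5.54 and 5.26 in intact mice, and was called without the weak arrays at 1.69 with an adjusted p of 0.00381. Il1f9, a cytokine of the interleukin 1 family, had 7.56, 7.07 and 7.95 at day 1, against 6.06, 5.73 and 5.51 in intact mice. Cxcl13, which attracts B cells, had 7.28, 5.02 and 7.62 at day 1 and 4.28, 4.09 and 5.03 in intact mice, so that replicate 2 alone overlapped with the intact arrays. Fcgr4, an activating receptor for IgG, differed by 0.87 ± 0.26, and Ms4a8a, a membrane protein of the CD20 family, by 1.04 ± 0.24. Slc40a1, the iron exporter ferroportin, had 5.70, 5.23 and 5.65 at day 1, against 4.18, 3.77 and 4.03 in intact mice, and was called without the weak arrays at 1.68 with an adjusted p of 0.0191. It was the only 1 of 20 members of the iron and heme list whose day 1 values lay wholly above the intact values.

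**Figure D3:**
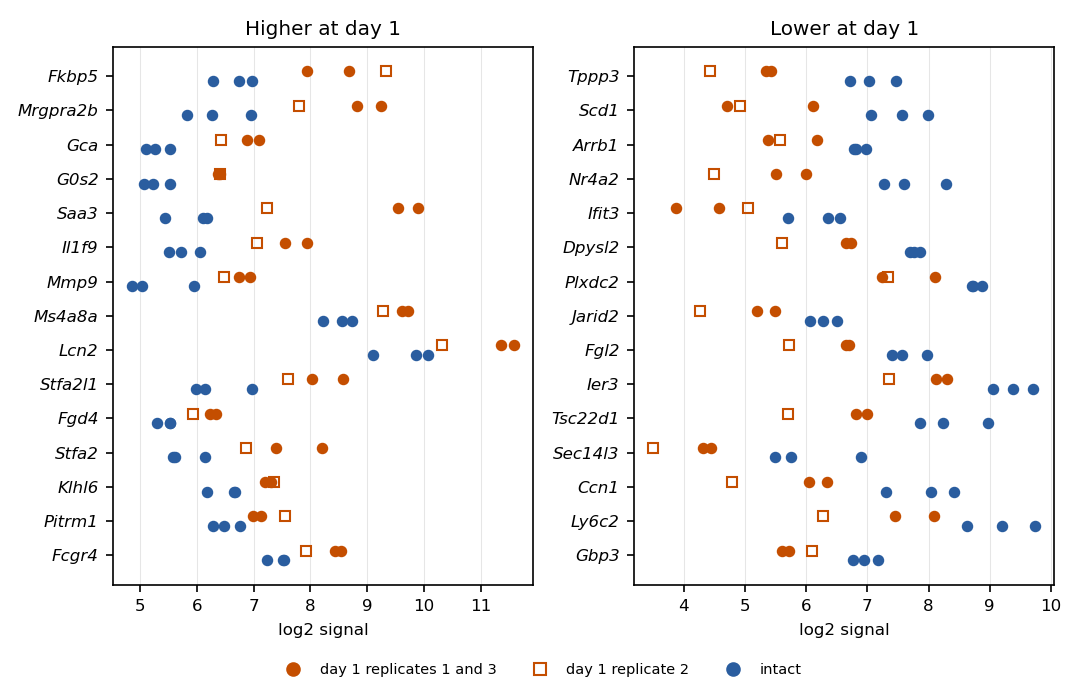
Log2 signal (horizontal axis) in each day 1 array (orange, replicate 2 as an open square) and each intact array (blue) for the 15 higher (left) and 15 lower (right) genes with the smallest unadjusted p, groups that do not overlap and a mean of at least 6 in the higher group. Absence of overlap is part of the rule that chose these genes, and replicate 2 is the day 1 array nearest to the intact arrays for Saa3 and Lcn2 and the farthest from them for Fkbp5.

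Fkbp5, a co-chaperone of the glucocorticoid receptor and a classical target of stress hormones, had 8.69, 9.33 and 7.94 at day 1, against 6.29, 6.75 and 6.97 in intact mice, a difference of 1.98 ± 0.34. Here replicate 2 was the highest array, and the difference was 1.64 without it, with an adjusted p of 0.0503 without the weak arrays. Of the 20 measured glucocorticoid-induced genes, 2 had day 1 values wholly above the intact values, Fkbp5 and Lcn2, which is also in the neutrophil list. Zbtb16, Sgk1 and Errfi1, which glucocorticoids also induce, differed by -0.95 ± 0.28, -0.47 ± 0.16 and -1.41 ± 0.48, and 13 of the list were lower. Errfi1 differed by -0.79 without replicate 2. Zbtb16 overlapped between the groups, with 4.96, 3.80 and 4.47 at day 1 and 4.91, 5.43 and 5.73 in intact mice. Tsc22d3, a further target known as GILZ, had 6.13, 6.79 and 5.89 at day 1 and 5.36, 6.33 and 6.62 in intact mice. The metallothioneins Mt1 and Mt2, metal-binding proteins that hormones and metals induce, were at 11.70 to 11.94 and 11.32 to 11.92 at day 1 and at 11.57 to 11.79 and 11.44 to 11.54 in intact mice.

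Among clock genes, Dbp, an output gene of the clock, had 4.44, 4.43 and 4.61 at day 1, against 5.33, 6.04 and 7.35 in intact mice, a difference of -1.75 ± 0.43. The day 1 arrays were close together, while the intact arrays spread widely. The core clock genes Per2 and Arntl had no such gap. Per2 had 5.67, 6.32 and 6.16 at day 1 and 5.11, 6.10 and 6.35 in intact mice. Arntl, the gene of BMAL1, had 4.62, 2.53 and 3.90 at day 1 and 4.35, 4.18 and 4.12 in intact mice. Of 20 measured clock genes, 16 were lower, with a median of -0.24, and of -0.06 without replicate 2. For 3 of the 20 the day 1 values lay wholly below the intact values, where all genes gave 9.28%. The labels give no hour of collection.

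In lipid handling, Scd1, the desaturase that makes oleate from stearate, had 4.71, 4.93 and 6.11 at day 1, against 7.56, 7.99 and 7.06 in intact mice, a difference of -2.29 ± 0.38. It was called lower without the weak arrays, at -2.13 with an adjusted p of 0.0332. Abca1, the pump that exports cholesterol, had 6.86, 7.15 and 7.12 at day 1, against 7.82, 7.91 and 7.52 in intact mice. Mylip, a ubiquitin ligase that degrades the LDL receptor, had 6.55, 6.72 and 6.42 at day 1, against 7.24, 7.47 and 7.47 in intact mice. Without replicate 2 the difference was -0.76 for Abca1 and -0.91 for Mylip. Over the list of lipid uptake, efflux and oxidation, which holds both genes, 6 of 23 were higher and 17 lower, and without replicate 2 the count was 14 higher and 9 lower. Abcg1, another cholesterol exporter, differed by -0.45 ± 0.29 with groups that did not overlap.

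The direction of the list of cholesterol and fatty acid synthesis rested on replicate 2: 7 of 22 genes were higher and 15 lower, and without it 14 were higher and 8 lower. Hmgcs1, which makes a precursor of sterols, had 8.65, 8.45 and 8.23 at day 1, against 7.63, 7.35 and 8.18 in intact mice, and Sqle, squalene epoxidase, differed by 0.83 ± 0.38 with overlap. Fasn, fatty acid synthase, differed by -0.45, and by -0.13 without replicate 2.

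Among cytokines, the inflammatory pair Tnf and Il1b did not differ beyond the spread of the arrays. Tnf had 10.78, 10.36 and 11.14 at day 1 and 11.02, 10.92 and 10.71 in intact mice. Il6, the interleukin that primes the liver for regrowth, had 8.02, 5.20 and 8.51 at day 1, against 10.25, 9.20 and 9.50 in intact mice, a difference of -2.41 ± 0.79, and of -1.39 without replicate 2. Osm, oncostatin M of the same cytokine family, differed by -1.65 ± 0.61, and by -0.88 without replicate 2. Il27, a subunit of an interleukin of that family, was slightly higher, with 3.90, 3.71 and 4.04 at day 1 and 3.52, 3.20 and 3.38 in intact mice, below the 95th percentile of the negative controls.

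Growth factors named in liver regeneration were lower in 23 of 31 members, with a median of -0.34, and of -0.28 without replicate 2, and for 12 of them the day 1 values lay wholly below the intact values. Hgf, hepatocyte growth factor, had 4.08, 2.99 and 4.63 at day 1, against 5.34, 5.31 and 5.35 in intact mice, a difference of -1.43 ± 0.34. Replicate 2 was the lowest, so that part of this difference rested on it. All 3 day 1 values of Hgf lay below the 95th percentile of the negative controls, which averaged 5.18. Vegfa, which drives vessel growth, had 4.998, 3.40 and 5.06 at day 1, against 5.41, 6.02 and 6.21 in intact mice. Without replicate 2 the difference of Vegfa was -0.85, against -1.40 with it. Fgf1, Pdgfa and Tgfb2 were likewise below the intact arrays, with differences of -1.32, -0.71 and -0.65, and that of Fgf1 was -0.85 without replicate 2. All values of Fgf1 and Tgfb2 lay below 5.18 in both groups, those of Tgfb2 at 2.53 to 2.70 at day 1 and 3.12 to 3.37 in intact mice. Tgfb1, the abundant member of its family, differed by -0.19 ± 0.17. Type 1 alveolar and vessel cells also express Vegfa, and their lists were lower on the same arrays, whose part was not tested.

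Eosinophil markers, a check on the other Siglec-F-bearing cell, were higher in 2 and lower in 8 of 10 measured genes, with a median of -0.47. Without replicate 2 they were higher in 4 and lower in 6, with a median of -0.03, so that the direction rested on that array. Ear6, a ribonuclease of the eosinophil-associated family, had 8.32, 8.78 and 7.86 at day 1, against 7.16, 7.27 and 7.43 in intact mice, and the eosinophil chemokine receptor Ccr3 had 3.49, 2.50 and 3.21 at day 1 and 3.604, 3.01 and 3.48 in intact mice. Monocyte and interstitial macrophage markers were higher in 4 and lower in 15 of 19 genes, with a median of -0.24, while without replicate 2 they were higher in 10 and lower in 9, with a median of 0.08. Ly6c2, a surface antigen of that list, had 7.45, 6.28 and 8.09 at day 1, against 8.63, 9.20 and 9.74 in intact mice. Mcpt8, a protease of basophils, was high on 1 intact array only, with 2.13, 3.45 and 2.35 at day 1 and 3.65, 4.02 and 7.08 in intact mice.

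Housekeeping and signalling lists had small negative medians that rested on replicate 2. Cytosolic ribosomal proteins had a median of -0.30 over 32 genes, and of 0.00 without that array. Respiratory chain subunits had -0.21 over 28 genes and 0.04 without it, proteasome subunits -0.10 over 31 and 0.14, and NF-kB subunits and targets -0.24 over 19 and 0.12. Glycolysis and hypoxia genes had -0.12 over 22 and 0.19, and antioxidant genes -0.09 over 20 and 0.19. None of these 6 lists kept its direction without replicate 2. Toll-like receptors and their adaptors, which sense microbes, had a median of 0.01, with Tlr4 at 7.42, 7.17 and 7.35 at day 1 and 7.18, 6.98 and 6.98 in intact mice. Cell cycle genes were lower in 29 of 37 members, with a median of -0.32, and of -0.08 without replicate 2.

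**Figure D4:**
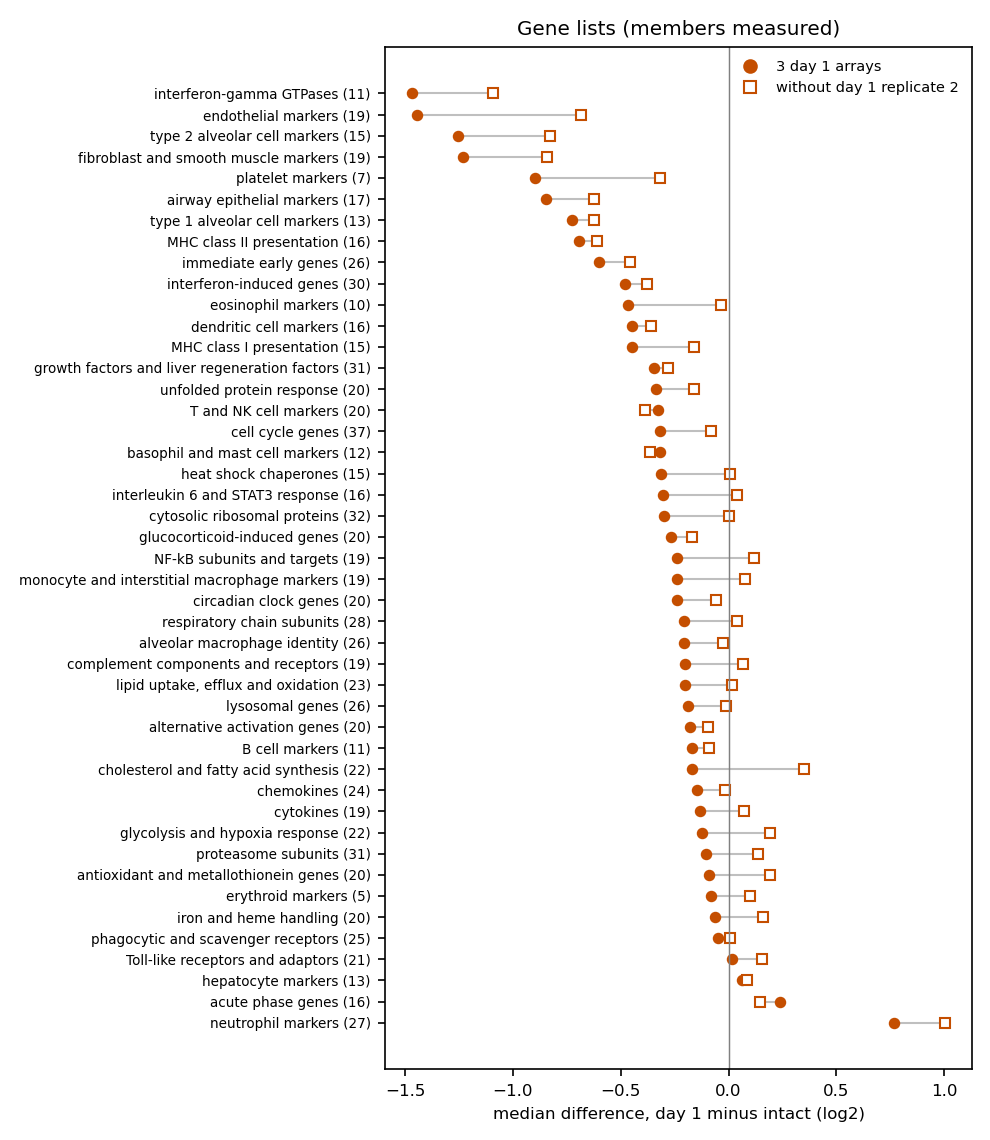
Median log2 difference, day 1 minus intact (horizontal axis), of 45 gene lists (number of measured members in parentheses) over all 3 day 1 arrays (filled circles) and without day 1 replicate 2 (open squares). The interferon-gamma GTPases lie lowest at -1.47 and -1.09 and neutrophil markers highest at 0.77 and 1.00, while most lists near 0 lie further right without that array.

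Day 1 was also set against the mean of days 3 and 7, a contrast that uses no intact array. In limma 0 of 22206 probe sets (0%) had an adjusted p under 0.05, the smallest was 0.212, and 825 were higher and 1219 lower at an unadjusted p under 0.05. Day 1 arrays lay wholly above all 6 later arrays for 359 probe sets (1.62%) and wholly below them for 365 (1.64%). Abca1 had 6.86, 7.15 and 7.12 at day 1, against 7.79, 8.48 and 8.06 at day 3 and 8.09, 7.99 and 8.04 at day 7, a difference of -1.03 ± 0.17. Fgl2, a secreted regulator of T cells, had 6.66, 5.71 and 6.70 at day 1, against 7.99, 7.89 and 8.30 at day 3 and 7.36, 7.88 and 7.29 at day 7. Day 1 was the low point for both, since their intact means were 7.75 and 7.65.

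Syne1, a large protein that anchors the nucleus to the cytoskeleton, had 4.62, 3.599 and 5.23 at day 1, against 6.89, 6.52 and 6.49 at day 3 and 5.58, 7.16 and 6.42 at day 7. Arrdc3, an arrestin-domain protein, and Gpr65, a receptor that senses acid, differed from the later times by -1.11 ± 0.20 and -1.48 ± 0.27. Higher at day 1 than later were Safb, a nuclear scaffold protein, at 0.71 ± 0.16, Trappc2l, of a vesicle-tethering complex, at 0.93 ± 0.24, Scarb1, the receptor for high-density lipoprotein, at 0.73 ± 0.21, Arfip2 at 0.77 ± 0.23 and Lipf, a lipase, at 0.78 ± 0.22. Only Safb of these 5 had groups that did not overlap. None passed the test.

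Receptors that mark eosinophils were lower at day 1 than later. Ccr3 averaged 3.07 at day 1, against 5.79 over days 3 and 7, a difference of -2.72 ± 0.42, and Il5ra, their interleukin 5 receptor, differed by -1.51 ± 0.24. Without replicate 2 these differences were -2.44 and -1.35. Both genes were chosen after their values were seen. Over the 10 eosinophil markers 4 were higher and 6 lower than later, with a median of -0.44, and of -0.23 without replicate 2. What part eosinophils have in the differences from the later times was not tested.

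The later levels of genes that stood far from the intact arrays at day 1 are given side by side. Saa3 averaged 5.91 in intact mice, 8.89 at day 1, 8.95 at day 3 and 7.57 at day 7. Lcn2 averaged 11.08 at day 1, 11.26 at day 3 and 11.01 at day 7, and Slc40a1 averaged 5.52, 5.83 and 5.55 in the same order. Fkbp5 averaged 8.65 at day 1, 7.94 at day 3 and 7.79 at day 7, where day 1 minus the later times was 0.79 ± 0.29, and 0.45 without replicate 2. Gzma averaged 3.42 at day 1, 3.89 at day 3 and 3.22 at day 7. Hgf at day 1 differed from the later times by -1.16 ± 0.30, and by -0.70 without replicate 2. The GTPases had a median difference from the later times of -0.45, with 11 of 11 lower at day 1. Without day 1 replicate 2 the median was -0.32, with 9 lower and 2, Igtp and Gbp9, higher.

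**Figure D5:**
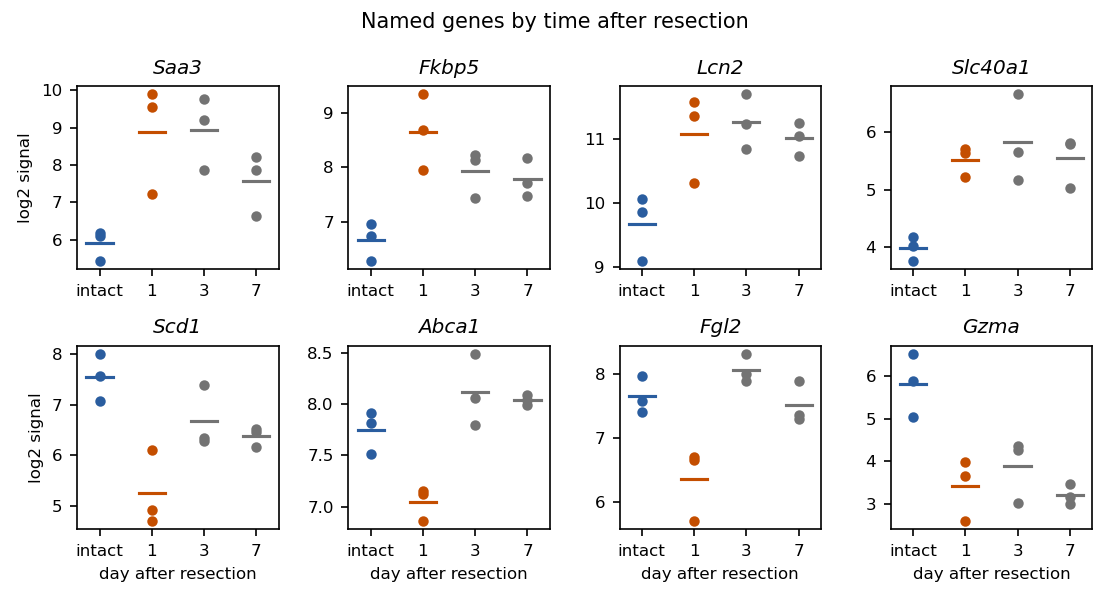
Log2 signal (vertical axis) of 8 named genes on each of the 12 arrays in intact mice and at 1, 3 and 7 days after resection (horizontal axis); points are arrays and bars group means. Saa3, Fkbp5, Lcn2 and Slc40a1 lie above the intact arrays at day 1, and Scd1, Abca1, Fgl2 and Gzma below them.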

How the data were processed

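RNA of Siglec-F-sorted alveolar macrophages was measured on 12 Clariom S mouse arrays, in 4 groups of 3 biological replicates, per the labels. Each deposited value is a log2 signal of 1 probe set; the submitters' processing notes name RMA and Transcriptome Analysis Console, with versions not given in the sources used here. RMA corrects background, normalizes quantiles and summarises probes. That the authors' values are on a log2 scale was read from the values.

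The 6640 control probe sets entered no test and served to describe the arrays. The other 22206 were fitted over all 12 arrays with limma 3.58.1 (R 4.3.3), with a mean for each group and moderated variances. P-values are two-sided and Benjamini-Hochberg adjusted over all probe sets, with a threshold of 0.05. An exact permutation test of 3 against 3 arrays cannot go below 0.10. The number of arrays limits the precision.

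In the supplied platform annotation 19572 probe sets had 1 gene symbol and 2634 had none. Lists (45, with 893 of 986 entries measured) were described by counts and medians, each gene by its brightest probe set. The members, lists and alternatives were chosen with earlier results of these data known. The weakly separating arrays are the array of each resected group with the lowest area under the curve. Named genes, predicted genes and receptor families left out, were the 15 higher and 15 lower with the smallest unadjusted p whose groups did not overlap and whose higher mean was at least 6. To these were added the 10 largest differences each way called without the weakly separating arrays, 4 members of each list, 5 genes each way against the later times and a few fixed genes. Other list members were chosen after their values were seen. Alternatives were other moderation, normalization, filters and array weights, a replicate block and each array left out. The procedure was tested on simulated data.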

Additional observations from a re-analysis of the deposited data

Results flagged for a closer look

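The hybridisation controls, bacterial RNAs added in the same amount to every hybridisation mix and used in no comparison, were higher on every day 1 array than on every intact array. Control bioB lay at 8.62 to 10.29 at day 1, against 7.53 to 7.72 on intact arrays, a difference of 1.56 (log2). Control bioC lay at 9.81 to 11.21 at day 1, against 8.65 to 8.85 on intact arrays, a difference of 1.497. The differences were 1.22 for bioD and 0.44 for cre. The highest value of each was that of day 1 replicate 2, without which the differences were 1.01 for bioB, 1.03 for bioC, 0.93 for bioD and 0.39 for cre. These controls move with the groups compared, and their part in the differences between day 1 and intact arrays was not tested. The labelling controls dap, phe, lys and thr overlapped between the groups, at 1.67 to 2.98 on the 6 day 1 and intact arrays. That is near the negative control medians of 2.39 to 2.76, so their overlap says nothing of labelling. On day 3 replicate 1 and day 7 replicates 2 and 3, dap lay at 6.47 to 7.77.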

How the results depend on the processing

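The count of 0 probe sets called for day 1 against intact stayed at 0 with a threshold of 0.1, trended and robust moderation, quantile normalization, median centring, either filter on dim probe sets, only the 6 arrays compared and only probe sets with 1 symbol. It was 43 with array weights and 71 without the 3 weakly separating arrays. Leaving out single arrays gave 0 to 12, with 12 without day 3 replicate 1, 6 without day 1 replicate 3, 1 without intact replicate 1 and 0 otherwise. Against days 3 and 7 it was 3 without the weakly separating arrays. There it was 0 to 2 when single arrays were left out, 2 for day 7 replicate 1 and 1 for either of day 1 replicates 2 and 3. The cause of these counts was not tested. Same-numbered replicates did not deviate together (correlations of -0.06, -0.03 and 0.02). With 3 arrays per group, these values cannot show whether same-numbered arrays shared a batch. With a replicate block the counts were 0 and 0, with 1927 and 2048 probe sets at an unadjusted p under 0.05.

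At an unadjusted p under 0.05, 127 higher and 485 lower probe sets (612 in all) held in all 12 fits that left out 1 array. Of 209 named genes, 202 kept their direction in every alternative. Many of these genes were chosen in these data for a small p or for groups without overlap. Groups without overlap cannot change sign when 1 array is left out, so this count is partly fixed by the choice. The 16 values of opposite sign were small. Il1b was at 0.0409 after quantile normalization, 0.0771 with array weights and 0.0719 without the weakly separating arrays, and ranged over -0.328 to 0.0973 without single arrays. Tnf was at 0.0465 with array weights and 0.0756 without the weakly separating arrays, with a range of -0.313 to 0.0756. In that fit Slc7a11 was at 0.0426, Arntl at 0.0444 and Adgre4 at 0.0910, with ranges of -0.501 to 0.0426, -1.002 to 0.0444 and -2.08 to 0.0910 without single arrays. Per2 ranged over -0.174 to 0.445 and Gsr over -0.0563 to 0.613. Signals near the negative controls, whose 95th percentile averaged 5.18 over the 6 arrays, limit what can be said of dim genes such as Ciita, Col3a1 and Il27.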
